A study of Homo sapiens with 4 samples.

Results

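The RNAs described here are the LINC-named RNAs that 22Rv1 cells, a human prostate cancer line, express at a countable level. They were chosen by name (LINC followed by digits only) and by their raw counts, which had to sum to at least 200 over the 4 libraries of the series; 103 of the 57014 named rows of the count table met both conditions. The summed count chose the members, so their overall level is a description, while the direction of a difference between the groups played no part in the rule. The table holds 1869 LINC-named rows in all, of which 1170 had no count in any library. A further 115 were under the minimum yet abundant enough to be tested.

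Poly(A)-selected RNA was sequenced from 2 CD276 knockout libraries (22Rv1 cells carrying sgCD276, genotype CD276 knockout) and 2 control libraries (22Rv1 cells carrying sgGFP, genotype wild type), with the replicate numbers 1 and 3 in each group. All 4 were grown in RPMI-1640 with fetal bovine serum, and no other agent is named. CD276 encodes B7-H3, a surface protein of the B7 checkpoint family, and the comparison asks what its loss does to the transcriptome of this line. The sources used here do not say whether the knockout cells are 1 clone or a pool. Nor do they say that the replicates, called biological in the series design, grew as separate cultures, so the p-values cover the spread among these libraries alone.

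Long intergenic non-coding RNAs are transcribed by RNA polymerase II, usually capped, spliced and polyadenylated like messenger RNAs, but lack a long open reading frame. Some act where they are made, on a neighbouring gene, some bind proteins or other RNAs in the nucleus or cytoplasm, a few turned out to encode microproteins, and for most no function is known. The LINC symbol with a number is a placeholder name given to such genes until a function is described. Their transcription tends to be restricted to particular tissues or tumours, and several have been described in prostate cancer.

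The name was checked against the annotation. In GENCODE 29 on GRCh38, 75 members are of the type lincRNA, 12 are processed transcripts, 5 are antisense RNAs, 5 are transcribed unprocessed pseudogenes, 2 come from bidirectional promoters and 1 is a transcribed unitary pseudogene, while 3 have a name that could not be placed. RefSeq lists all 103 as long non-coding RNAs, 90 under the same symbol and 13 under another current symbol, among them CHASERR for LINC01578 and MROCKI for LINC01268. Not every member lies between genes. Of the 100 with a position, 45 share exonic bases with another gene and 23 overlap the body of a protein-coding gene. The members lie on 21 chromosomes, with the largest number, 12, on chromosome 1. A member had a median longest transcript of 2385 bases with 3 exons, against 3660 bases and 8 exons for the protein-coding genes tested. No source used here gives the strand setting of the counting or its treatment of reads that map to several places, so reads of overlapping genes and of near-identical copies cannot be told apart.

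Promoters of 5 members whose levels differed between the groups are shown. LINC02367 and LINC01268 had the largest falls, and LINC00654 and LINC00235 the largest rises, among called members with a RefSeq promoter close to a GENCODE start. LINC00963 was taken as the most abundant member, and its RefSeq start lies 115 bases from the nearest GENCODE start. The choice was not made by promoter type. Each runs 5′ to 3′ from 250 bases before to 50 bases after the RefSeq start on GRCh38.p14, in lower case, with motif matches in capitals. The motifs searched, on both strands, were the TATA box (TATAAA), the CCAAT box (CCAAT), the GC box (GGGCGG), the cyclic AMP response element half-site (TGACG), the AP-1 site (TGACTCA), the E-box (CACGTG) and the steroid receptor half-site (AGAACA), and overlapping matches were merged in the capitals.
LINC02367, chr12:9367214-9367513, plus strand, lower in the knockouts, with a CCAAT box as its match.
LINC02367: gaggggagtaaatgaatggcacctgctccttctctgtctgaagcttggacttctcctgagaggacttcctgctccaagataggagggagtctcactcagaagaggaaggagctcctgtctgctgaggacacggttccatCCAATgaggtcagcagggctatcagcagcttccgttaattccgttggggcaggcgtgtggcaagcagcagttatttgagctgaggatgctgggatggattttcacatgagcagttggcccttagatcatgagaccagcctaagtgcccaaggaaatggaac
LINC01268, chr6:113873298-113873597, minus strand, lower in the knockouts, with a CCAAT box as its match.
LINC01268: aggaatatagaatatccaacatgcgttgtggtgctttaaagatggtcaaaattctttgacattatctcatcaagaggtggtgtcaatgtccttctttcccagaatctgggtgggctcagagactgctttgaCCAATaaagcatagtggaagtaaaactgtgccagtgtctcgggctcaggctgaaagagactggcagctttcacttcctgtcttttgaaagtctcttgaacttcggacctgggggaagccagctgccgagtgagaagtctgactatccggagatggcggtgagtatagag
LINC00963, chr9:129488410-129488709, plus strand, slightly lower in the knockouts, with 7 GC boxes and an AP-1 site.
LINC00963: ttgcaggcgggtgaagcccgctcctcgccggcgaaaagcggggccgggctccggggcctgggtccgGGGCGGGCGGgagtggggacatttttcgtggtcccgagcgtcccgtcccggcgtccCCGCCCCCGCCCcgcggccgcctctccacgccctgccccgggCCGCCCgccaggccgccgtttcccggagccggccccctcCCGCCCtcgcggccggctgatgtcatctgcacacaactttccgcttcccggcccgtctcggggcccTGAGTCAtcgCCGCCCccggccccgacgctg
LINC00654, chr20:5504547-5504846, minus strand, higher in the knockouts, with an E-box and a CCAAT box.
LINC00654: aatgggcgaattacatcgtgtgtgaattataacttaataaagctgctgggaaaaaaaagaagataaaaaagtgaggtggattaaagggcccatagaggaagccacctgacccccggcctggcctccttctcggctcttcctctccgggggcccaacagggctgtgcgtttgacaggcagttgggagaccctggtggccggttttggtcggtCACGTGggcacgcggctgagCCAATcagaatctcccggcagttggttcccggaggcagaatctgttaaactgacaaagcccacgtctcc
LINC00235, chr16:527358-527657, minus strand, higher in the knockouts, with 3 GC boxes and a cyclic AMP response element half-site.
LINC00235: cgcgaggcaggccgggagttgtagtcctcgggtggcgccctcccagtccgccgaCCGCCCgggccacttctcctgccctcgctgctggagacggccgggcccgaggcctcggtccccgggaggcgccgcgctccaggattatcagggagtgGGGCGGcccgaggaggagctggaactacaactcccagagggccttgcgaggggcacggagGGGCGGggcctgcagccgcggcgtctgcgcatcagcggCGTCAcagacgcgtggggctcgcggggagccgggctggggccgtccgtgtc

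The RefSeq promoter table held 65 of the 103 members. A GC box stood in 36 of these 65 windows, a CCAAT box in 29 and a TATA box in 6, while 45.0%, 34.6% and 11.5% of all 35116 promoters in the table held these motifs in the same order. The cyclic AMP response element half-site was found in 22 windows, the E-box in 9, the steroid receptor half-site in 5 and the AP-1 site in 3, beside 24.6%, 7.26%, 14.8% and 4.95% of all promoters. A match describes the letters of the window and is not a binding site. The ratio of observed to expected CpG dinucleotides, which is high in CpG islands, had a median of 0.75 over the members and 0.58 over all promoters. It was 0.38 in the 9 windows of members lower in the knockouts, 0.49 in the 4 windows of members higher in the knockouts and 0.78 in the 52 windows of members whose level did not pass the test. Among protein-coding genes the medians were 0.83 in lower, 0.88 in higher and 0.84 in uncalled genes, and among other lincRNA and antisense genes they were 0.63, 0.79 and 0.80 in the same order. For LINC00997 and LINC01001, both among the 9, the RefSeq start lies 1993 and 7145 bases from the nearest GENCODE start.

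The libraries summed to between 20079050 and 25802417 counts, so that 1 normalized CPM (counts per 1000000 after scaling) stood for 19.4 to 26.3 counts. CD276, the targeted gene, was at 23.6 and 26.2 normalized CPM in the knockouts and at 47.4 and 54.4 in the controls (log2 fold change -1.03 ± 0.16 SE, edgeR adjusted p = 0.00561), and without control replicate 3 it missed the threshold (-0.92, edgeR adjusted p = 0.0812). All 9 prostate luminal markers listed were tested, and 7 of them did not pass, among them KLK3, which encodes prostate-specific antigen, at 31.9 and 36.2 normalized CPM in the knockouts and 35.6 and 31.9 in the controls. SLC45A3, which encodes prostein, was higher, at 39.3 and 35.2 in the knockouts and 18.4 and 17.9 in the controls (edgeR adjusted p = 0.00569), and KRT18, a luminal keratin, was lower, at 438 and 593 in the knockouts and 854 and 801 in the controls (edgeR adjusted p = 0.0370). Of the 7 markers of other cells, PECAM1 was at 0 in every library, and KRT5, TP63 and PTPRC were at or below 0.114 normalized CPM. VIM, which encodes the mesenchymal filament protein vimentin, was at 91.2 and 171 in the knockouts and 109 and 103 in the controls, and COL1A2 at 0.419 and 2.16 in the knockouts and 0.761 and 0.929 in the controls, and neither passed the test. COL1A1, the partner collagen gene, was lower, at 18.9 and 29.1 normalized CPM in the knockouts and 49.98 and 46.2 in the controls (edgeR adjusted p = 0.0139). The part of these markers in the members' values was not tested. Transcripts of the mitochondrial genome took 1.46% and 1.78% of the counts in the knockouts, against 5.84% and 6.15% in the controls.

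The median LINC-named RNA was slightly lower in the knockouts, but not among the 24 members with the most counts. A minority of the members passed the test. Of the 103 members, all of which were tested, 18 fell, 6 rose and 79 did not pass (edgeR's quasi-likelihood test, Benjamini-Hochberg adjusted over all 18043 genes tested, threshold 0.05). The members called made up 23.3%, near the 22.8% called of all genes tested. By direction, 17.5% of the members were lower, against a background of 12.9%, and 5.83% were higher, against a background of 9.87%. Among the 13489 genes tested that also had at least 200 summed counts, 25.8% were called, 13.1% lower and 12.7% higher. The median log2 fold change, knockout over control, was -0.20 over the members, -0.0045 over all genes tested and 0.06 over protein-coding genes with at least 200 summed counts. Other non-coding genes gave a median of the same size. Of the 222 lincRNA genes with other names and at least 200 summed counts, 51 were lower and 8 higher, with a median of -0.20, and of 433 antisense genes, 78 were lower and 20 higher, with a median of -0.20 as well. By type, however, the 75 members annotated as lincRNA had a median of -0.049, with 39 negative and 36 positive values. The 12 processed transcripts among the members had a median of -0.42 and the 5 antisense members -0.66. By summed count, the 62 members with 200 to under 500 had a median of -0.19, with 10 lower and 1 higher. The next 17 had a median of -0.26, with 5 lower and 2 higher. The 24 with the most counts had a median of 0.014, with 12 negative and 12 positive values, 3 lower and 3 higher. Protein-coding genes with at least 200 summed counts had a median level of 32.2 normalized CPM, against 4.18 for the members. The medians of -0.20 and 0.06 thus do not compare genes of like level. In bulk libraries fewer cells that express an RNA and less of it per cell cannot be told apart.

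**Figure D1:**
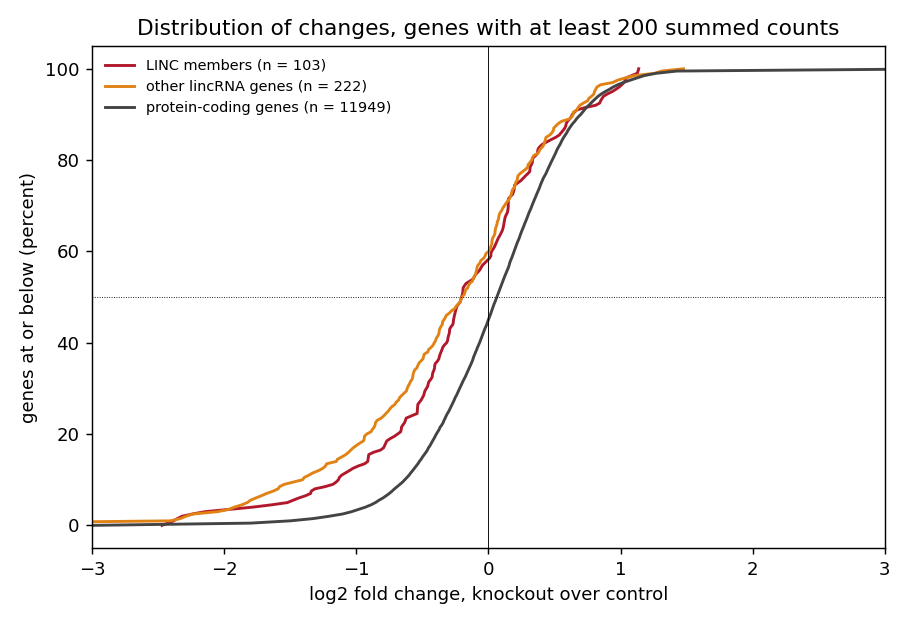
Cumulative percentage of genes (vertical axis) at or below each log2 fold change, knockout over control (horizontal axis), for the 103 LINC members, 222 other lincRNA genes and 11949 protein-coding genes, all with at least 200 summed counts. The LINC curve runs left of the protein-coding curve over most of the axis, with a median of -0.20 against 0.06, and close to that of the other lincRNA genes.

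The number of calls depended on whether the library left out was a control or a knockout. Without control replicate 1, 3 members were called, each lower, and 1.65% of all genes were called. Without control replicate 3, 5 were called, each lower, with 3.15% of all genes called. Leaving out a knockout library gave 15 higher and 34 lower (without replicate 1) or 16 higher and 30 lower (without replicate 3), with 45.7% and 48.3% of all genes called. The median over the members moved to -0.12 with knockout replicate 1 left out and -0.077 with knockout replicate 3 left out, and to -0.099 and -0.16 when the controls of the same numbers were dropped. In each of these fits 1 group is a single library, whose spread is taken to equal that of the other group. With all 4 libraries and no multiple-test adjustment, 13 of the 103 members were higher and 24 lower at an edgeR p under 0.05. In that fit 3230 of all 18043 genes tested were higher and 3767 lower at the same threshold. Scaling by library totals alone, which moves the median of all genes to 0.10, gave 10 higher and 14 lower members with a median of -0.10, a difference of -0.21 from that of all genes.

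The 2 knockout libraries lay on the same side of both controls in 65 of the 103 members, below in 41 and above in 24. Over all 18043 genes tested the groups did not overlap in 65.9%, with the knockouts below in 6151 genes and above in 5737. The members together held 0.100% and 0.0906% of the counts in the knockouts and 0.104% and 0.101% in the controls, so the knockout shares lay under the control shares in every pairing. The exact two-sided permutation test over 4 libraries gave p = 0.333, the smallest p that this design allows. The 10 highest members made up 44.0% of the members' counts in each knockout library, and 45.8% and 44.9% in the controls.

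**Figure D2:**
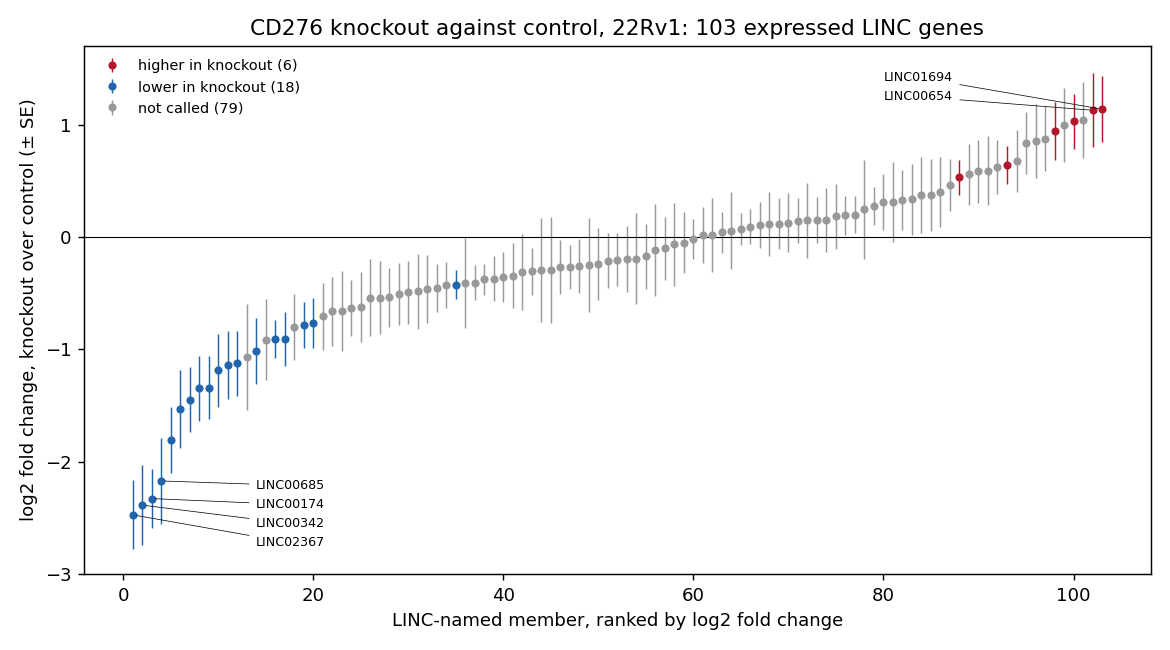
Log2 fold change of knockout over control with its SE (vertical axis) for the 103 LINC members in rank order (horizontal axis), with the 18 lower and 6 higher members coloured. The falls reach -2.47 (LINC02367), further from 0 than the rises, which reach 1.14 (LINC01694).

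The deepest falls were 5.02-fold to 5.55-fold and were found in 3 RNAs from 3 chromosomes. LINC02367 (chromosome 12, 9367464 to 9397617, plus strand), which shares no exon with another gene, was at 2.78 and 1.74 normalized CPM in knockout replicates 1 and 3, against 14.8 and 10.3 normalized CPM in control replicates 1 and 3. LINC00342 (chromosome 2, 95807118 to 95816215, minus strand), also without shared exons, was at 3.39 and 1.51 normalized CPM in the knockouts and 11.4 and 14.3 in the controls. LINC00174 (chromosome 7, 66376044 to 66493566, minus strand) was at 9.48 and 5.26 normalized CPM in the knockouts and 38.3 and 35.7 in the controls. In all 3 the groups were far apart, and replicate 3 was the lower of the knockout libraries. The log2 fold changes were -2.47 ± 0.31 for LINC02367, -2.39 ± 0.35 for LINC00342 and -2.33 ± 0.26 for LINC00174 (SE; edgeR adjusted p = 0.00342, 0.00532 and 0.00287 in that order). Within the knockout group the size varied. For LINC00342 the log2 fold change was -3.07 when knockout replicate 1 was left out and -1.85 when knockout replicate 3 was. These 3 RNAs passed the test in each of the 12 other fits, leave-one-out fits included. LINC00174 shares 13.3% of its exonic bases with other genes on its strand, among them pseudogenes, and some of its reads may come from those.

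A second group fell between 2.27-fold and 4.50-fold. LINC00685 (X chromosome, 320990 to 321851, plus strand, in the pseudoautosomal region) is a short antisense RNA with an exonic length of 428 bases. It was at 1.41 and 0.696 normalized CPM in the knockouts and 4.97 and 4.54 in the controls (-2.17 ± 0.38 on the log2 scale, edgeR adjusted p = 0.00813). LINC01977 (chromosome 17, 79823452 to 79827704, plus strand) was at 1.75 and 1.55 normalized CPM in the knockouts and 6.49 and 5.06 in the controls (-1.81 ± 0.30, edgeR adjusted p = 0.00674). In both RNAs the groups were well apart, and in LINC00685 the lower knockout library was again replicate 3. LINC01001 (chromosome 11, 127204 to 139612, minus strand), at the end of the short arm, was at 1.87 and 1.12 in the knockouts and 4.57 and 4.08 in the controls. LINC00997 (chromosome 7, 32760279 to 32762924, plus strand), a single-exon RNA that shares 11.0% of its exonic bases with a pseudogene on the other strand, was at 2.36 and 1.86 in the knockouts and 5.73 and 5.01 in the controls. Their log2 fold changes were -1.53 ± 0.35 and -1.35 ± 0.29 (edgeR adjusted p = 0.0173 and 0.0147).

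LINC01268 (chromosome 6, 113868013 to 113873351, minus strand) is known as MROCKI or ROCKI, an RNA that acts on the neighbouring MARCKS gene in human macrophages. It was at 1.98 and 2.63 normalized CPM in the knockouts and 5.69 and 5.99 in the controls (-1.34 ± 0.28 on the log2 scale, edgeR adjusted p = 0.0140). Its knockout values lay close together, well below both controls. LINC00960 (chromosome 3, 75672391 to 75679303, plus strand), which lies within the body of ZNF717 and shares 10.0% of its exonic bases with it on the other strand, was at 1.37 and 1.51 in the knockouts and 3.40 and 3.15 in the controls (-1.18 ± 0.32, edgeR adjusted p = 0.0324). One of the 2 rows named LINC01238, the row with 326 summed counts, was at 1.75 and 2.16 in the knockouts and 5.69 and 5.01 in the controls (-1.45 ± 0.29, edgeR adjusted p = 0.0116), while the row with 213 summed counts did not pass (-0.54, edgeR adjusted p = 0.282). The table does not pair either row with a position. Without control replicate 1, the call was lost for LINC00685 (edgeR adjusted p = 0.0664) and LINC01977 (0.110); without control replicate 1 or without control replicate 3, it was lost for LINC01001 (0.193 and 0.102), LINC00997 (0.213 and 0.106), LINC01268 (0.153 and 0.140), LINC00960 (0.323 and 0.218) and LINC01238 (0.179 and 0.0885). LINC00960 also missed the threshold with DESeq2 (adjusted p = 0.0561).

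**Figure D3:**
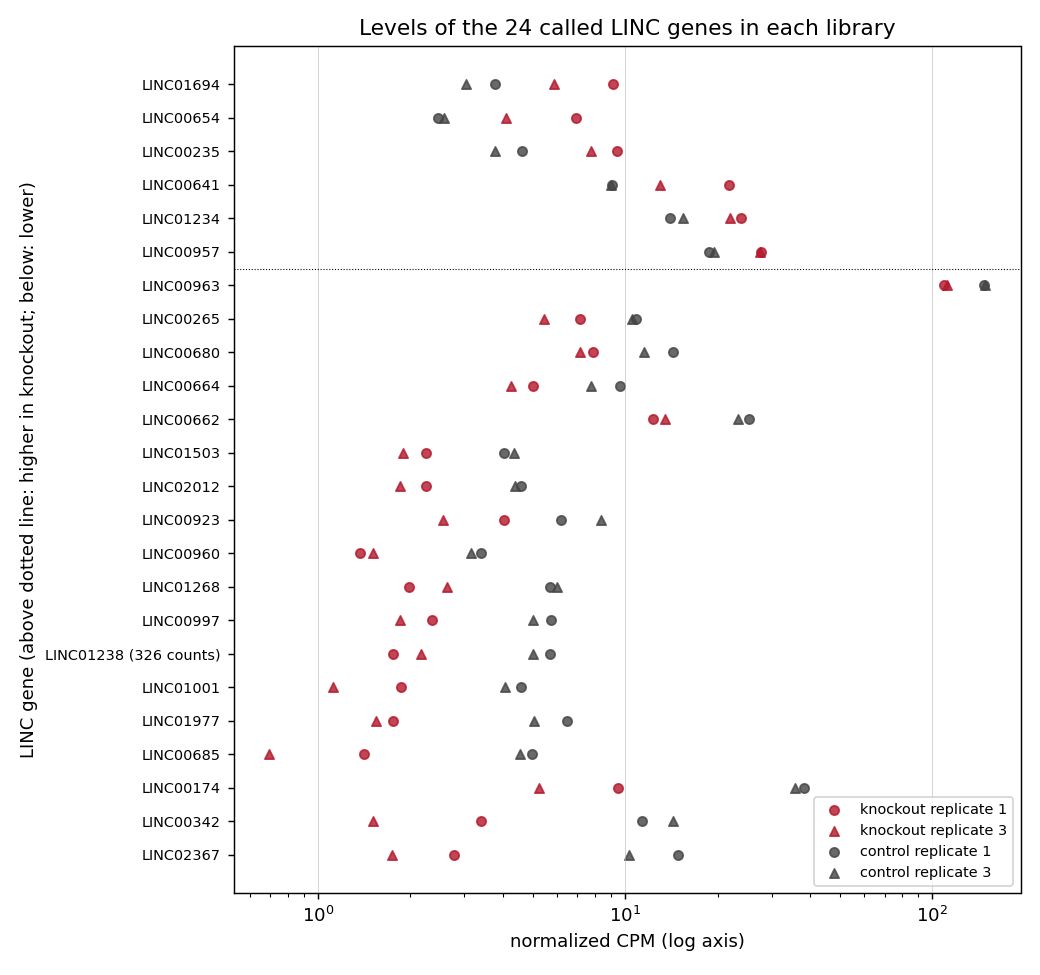
Normalized CPM (horizontal log axis) of the 24 LINC members called, in each of the 4 libraries (red circle and triangle, knockout replicates 1 and 3; grey circle and triangle, control replicates 1 and 3). The 6 members above the dotted line were higher in the knockouts and the 18 below it lower; LINC00963, at 109 and 111 against 148 and 148 normalized CPM, stands far to the right of the others.

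The other falls were between 1.34-fold and 2.20-fold, and 6 of them are named here after their values were seen. LINC00923 had a log2 fold change of -1.14, LINC02012 of -1.12, LINC01503 of -1.01, LINC00664 of -0.91, LINC00680 of -0.78 and LINC00265 of -0.77, with edgeR adjusted p between 0.0270 and 0.0396. None of these 6 was called without control replicate 1 or without control replicate 3. LINC01503 has been described as a p63-driven RNA of squamous cell carcinomas. In the 22Rv1 libraries it was at 2.25 and 1.89 normalized CPM in the knockouts and 4.03 and 4.34 in the controls; TP63 itself was at 0 and 0.039 in the knockouts and at 0 in both controls. LINC00680 is annotated as a transcribed pseudogene, so reads of its copies may be mixed into its counts. LINC00662 (chromosome 19, 27684580 to 27793940, minus strand), described in several cancers, was more abundant, at 12.4 and 13.5 normalized CPM in the knockouts and 25.3 and 23.4 in the controls (-0.91 ± 0.17, edgeR adjusted p = 0.00951). Its replicates differed little within each group, yet without control replicate 1 the edgeR adjusted p was 0.185 and without control replicate 3 it was 0.0957.

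LINC00963 (chromosome 9, 129483451 to 129513686, plus strand), an RNA described in the passage of prostate cancer to androgen independence, was the most abundant member. It had 2873 and 2880 raw counts in the knockouts and 3299 and 2871 in the controls, which became 109 and 111 normalized CPM in the knockouts and 148 and 148 in the controls. The replicates were almost identical within each group. The difference was small, with a log2 fold change of -0.42 ± 0.13, and just passed the threshold (edgeR adjusted p = 0.0480). It missed it in 7 of the 12 other fits, among them DESeq2 (adjusted p = 0.0601), library totals alone (edgeR adjusted p = 0.120) and those without control replicate 1 (0.447) or control replicate 3 (0.411), and kept its direction in each.

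The 6 rises were smaller than the deepest falls. LINC01694 (chromosome 21, 45593654 to 45603056, plus strand) was at 9.14 and 5.88 normalized CPM in the knockouts and 3.76 and 3.05 in the controls. LINC00654 (chromosome 20, 5496067 to 5504613, minus strand) was at 6.93 and 4.10 in the knockouts and 2.46 and 2.58 in the controls. LINC00235 (chromosome 16, 525155 to 527407, minus strand), a single-exon RNA, was at 9.41 and 7.73 in the knockouts and 4.61 and 3.77 in the controls. In these 3 RNAs knockout replicate 1 was the higher of the knockout libraries and the groups did not overlap. The log2 fold changes were 1.14 ± 0.29, 1.13 ± 0.33 and 1.03 ± 0.24 (edgeR adjusted p = 0.0273, 0.0397 and 0.0202), and LINC00654 missed the threshold with voom (limma adjusted p = 0.0611) and with offsets for GC content and length (edgeR adjusted p = 0.0545).

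LINC00641 (chromosome 14, 21200079 to 21206900, minus strand) was at 21.8 and 13.0 normalized CPM in the knockouts and 9.09 and 8.98 in the controls, with a far wider gap between the knockouts than between the controls. Its log2 fold change was 0.94 ± 0.26 (edgeR adjusted p = 0.0320). It was 0.53 when knockout replicate 1 was left out and 1.34 when knockout replicate 3 was, and voom gave a limma adjusted p of 0.0516. LINC01234 (chromosome 12, 113679459 to 113773683, minus strand), described in several carcinomas, was at 23.8 and 22.0 in the knockouts and 13.97 and 15.5 in the controls (0.64 ± 0.17, edgeR adjusted p = 0.0292). LINC00957 (chromosome 7, 44039171 to 44042306, plus strand) was at 27.8 and 27.5 in the knockouts and 18.8 and 19.5 in the controls (0.53 ± 0.16, edgeR adjusted p = 0.0416), and 23.8% of its exonic bases are shared with the pseudogene RASA4CP on the other strand. In these last 2 RNAs the libraries of a group lay close together. None of the 6 rises was called without control replicate 1, where their edgeR adjusted p ran from 0.174 (LINC01694) to 0.439 (LINC00957), or without control replicate 3, where it ran from 0.180 (LINC00641) to 0.332 (LINC00957).

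Most abundant members did not pass the test. LINC00665, which encodes the microprotein CIP2A-BP in breast cancer cells, was at 67.3 and 53.9 normalized CPM in the knockouts and 59.3 and 54.5 in the controls. LINC00467, which encodes ASAP, a microprotein of the mitochondrial ATP synthase, was at 52.1 and 45.5 in the knockouts and 48.1 and 44.9 in the controls. Their groups overlapped, and their log2 fold changes were 0.09 ± 0.15 and 0.07 ± 0.15 (edgeR adjusted p = 0.705 and 0.756). LINC01029 was at 48.1 and 43.2 normalized CPM in the knockouts and 60.2 and 58.3 in the controls, and LINC01278 at 28.8 and 25.98 in the knockouts and 38.0 and 34.7 in the controls. Both knockouts lay below both controls in these 2, at log2 fold changes of -0.38 ± 0.14 and -0.41 ± 0.15, without passing the test (edgeR adjusted p = 0.0824 and 0.0885). Each passed without knockout replicate 1, at -0.44 and -0.47, and LINC01278 also passed with offsets for GC content and length, at -0.62 (edgeR adjusted p = 0.00985). LINC00665 was called higher without knockout replicate 3, at 0.31. LINC00339 (0.20 ± 0.16) and LINC02210 (0.04 ± 0.18) did not pass either. Per kilobase of exon the order of levels was another: LINC01029 led with a mean of 25.04 normalized CPM per kilobase, followed by LINC02001 at 13.5, LINC00467 at 10.7 and LINC00963 at 9.81.

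With 0.5 added to the normalized CPM before the log, the knockout libraries differed from each other by more than 1 log2 unit in 5 members, and none of these was called. On that scale the called LINC00342 came close, with a difference of 0.95. LINC00106, a pseudoautosomal RNA like LINC00685, was at 3.66 and 1.12 normalized CPM in knockout replicates 1 and 3 and at 5.42 and 4.59 in the controls (-1.07 ± 0.47, edgeR adjusted p = 0.132). It passed the test without a filter on low counts (edgeR adjusted p = 0.0147) and without knockout replicate 1, where the log2 fold change was -2.15. LINC01311 was at 2.97 and 1.08 in the knockouts and 2.19 and 2.79 in the controls, and LINC01347 at 3.999 and 1.701 in the knockouts and 3.13 and 3.05 in the controls. In these the low value was that of knockout replicate 3, and without knockout replicate 1 both were called lower, at -1.18 and -0.85. The order was the other way round in LINC02381, at 1.26 and 3.48 in the knockouts and 3.27 and 2.53 in the controls, and in LINC00173, at 1.68 and 3.87 in the knockouts and 2.78 and 3.82 in the controls. These were called lower without knockout replicate 3, at -1.14 and -0.90. Over all members the median difference of a knockout library from the mean of the controls was -0.12 log2 in replicate 1 and -0.12 in replicate 3.

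**Figure D4:**
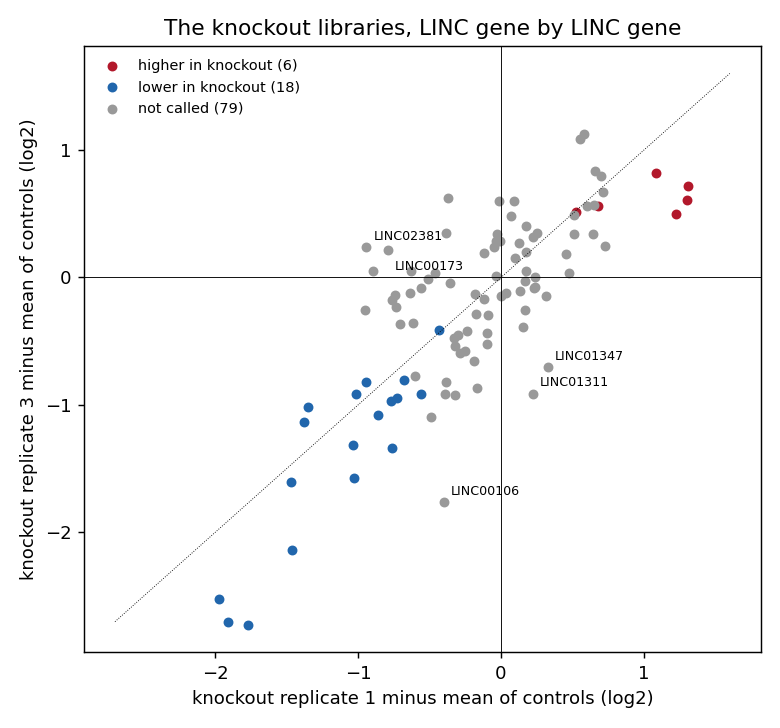
Difference of knockout replicate 1 (horizontal axis) and knockout replicate 3 (vertical axis) from the mean of the controls, in log2 normalized CPM with 0.5 added, for the 103 LINC members; both axes share the same 2 controls, so the slope is not a result. The 18 lower and 6 higher members lie in the lower left and upper right quadrants, where uncalled members lie as well. The 5 labelled members lie farthest from the dotted line of equality.

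Members were set beside the nearest protein-coding gene, since some RNAs of this class act on a neighbour. For 64 members a neighbour within 50 kb was tested. Its log2 fold change and that of the member had the same sign in 28 pairs, and the correlation across pairs, all from the same 4 libraries, was 0.03 (Pearson) and -0.07 (Spearman). Of these members 14 were called, and of the neighbours 11, both shares below the 22.8% called of all genes tested. Both were called in 2 pairs. LINC00342 fell with ANKRD36C, 20704 bases away, which was at 4.49 and 4.17 normalized CPM in the knockouts and 9.99 and 10.2 in the controls (-1.22 ± 0.22, edgeR adjusted p = 0.00825) and belongs to a family of near-identical genes. LINC00235 rose while CAPN15, a calpain-family gene whose start lies head to head with it at 310 bases, fell: CAPN15 was at 109.6 and 85.2 normalized CPM in the knockouts and 138 and 153 in the controls (-0.58 ± 0.16, edgeR adjusted p = 0.0343).

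At the other called members with a neighbour tested within 50 kb, the neighbour did not pass the test. MARCKS, the actin and membrane-binding substrate of protein kinase C that lies 4542 bases from LINC01268, was at 257 and 230 normalized CPM in the knockouts and 239 and 261 in the controls (-0.04 ± 0.15, edgeR adjusted p = 0.870). TPST1, a tyrosine sulfotransferase whose body LINC00174 overlaps on the other strand, had a log2 fold change of 0.34 ± 0.21. HNRNPC, an RNA-binding protein 2236 bases from LINC00641, had 0.07 ± 0.18, and GTPBP6, 2171 bases from LINC00685, had -0.18 ± 0.13. BET1L, a Golgi SNARE 28172 bases from LINC01001, had 0.45 ± 0.15. ZNF717, around LINC00960, had -0.25 ± 0.22, DBNL, by LINC00957, 0.11 ± 0.14, RBM19, by LINC01234, -0.45 ± 0.22, and GPCPD1, by LINC00654, -0.24 ± 0.16. These values had edgeR adjusted p between 0.0574 and 0.790. Beyond 50 kb, ARRDC4, an arrestin-domain gene 86148 bases from LINC00923, was higher while LINC00923 was lower. ARRDC4 was at 23.3 and 28.4 normalized CPM in the knockouts and 13.3 and 12.5 in the controls (1.00 ± 0.18, edgeR adjusted p = 0.00840). No other neighbour tested beyond 50 kb of a called member passed. LINC01578, or CHASERR, is known to hold down its neighbour CHD2, a chromatin remodeller. LINC01578 was at 23.3 and 33.5 normalized CPM in the knockouts and 39.8 and 33.5 in the controls (-0.37 ± 0.20), and CHD2 at 62.0 and 42.9 in the knockouts and 66.9 and 66.1 in the controls (-0.34 ± 0.18), and neither passed (edgeR adjusted p = 0.214 and 0.205). Without knockout replicate 3, LINC01578 was called lower, at -0.59.

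**Figure D5:**
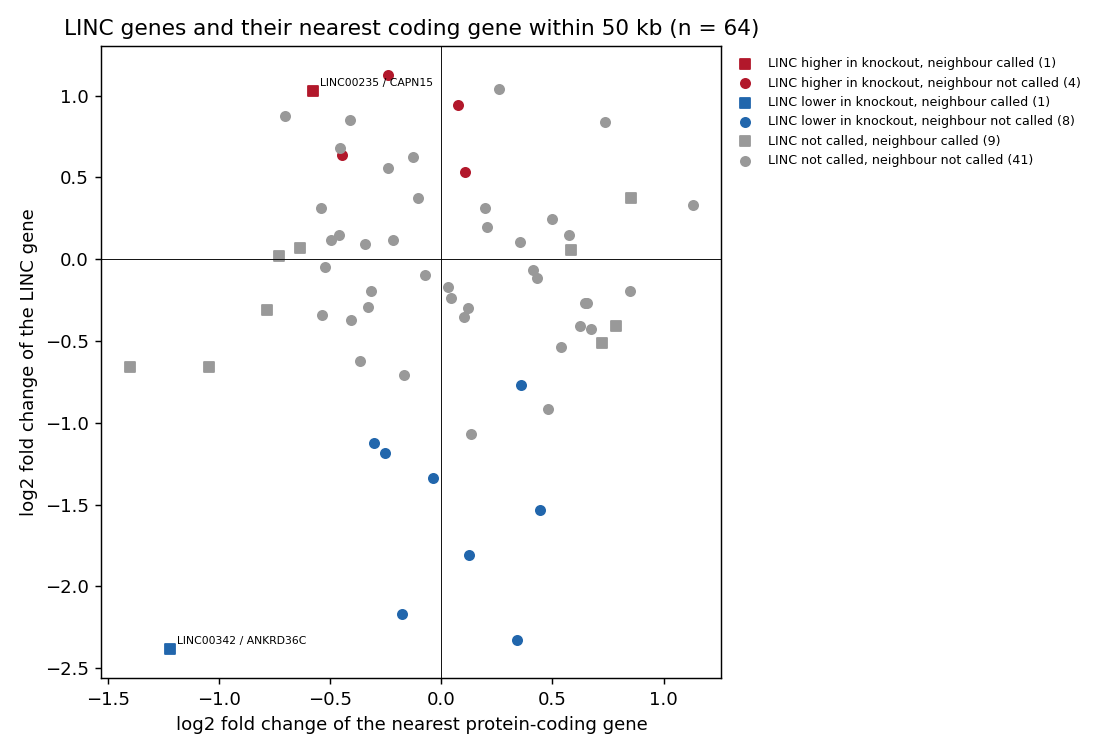
Log2 fold change, knockout over control, of the nearest protein-coding gene (horizontal axis) and of the LINC member (vertical axis) for the 64 members with a tested neighbour within 50 kb; colours give the call of the LINC member and squares mark called neighbours. The points show no common direction, with the same sign in 28 of 64 pairs, and the 2 coloured squares are LINC00342 with ANKRD36C and LINC00235 with CAPN15.

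Position and structure were compared within the set as a description, with no test of a difference between classes. Over all genes tested 22.8% were called, 12.9% lower and 9.87% higher. At an unadjusted edgeR p under 0.05, 3767 of the 18043 genes were lower and 3230 higher. Of the 20 members more than 50 kb from any protein-coding gene, 7 (35.0%) were called, each of them lower, and the median log2 fold change over the 20 was -0.44. At an unadjusted edgeR p under 0.05, 8 of the 20 were lower and 1 higher. Of the 35 whose nearest coding gene lies at 5 to 50 kb, 7 (20.0%) were called, 4 lower and 3 higher, with a median of 0.018. Of the 22 within 5 kb but without overlap, 6 (27.3%) were called, 3 lower and 3 higher, with a median of -0.18. Of the 23 that overlap a coding gene body, 3 (13.0%) were called, each lower, and at an unadjusted p under 0.05, 6 were lower and 2 higher. Of the 9 that start head to head within 1 kb of a coding gene, LINC00235 was the call, higher, and 3 were higher at an unadjusted p under 0.05. The 55 members that share no exonic base had 11 falls (20.0%) and 4 rises (7.27%), and the 45 that share some had 6 (13.3%) and 2 (4.44%), with medians of -0.19 in both groups. Across the 100 members with a position the Spearman correlation of the log2 fold change was -0.01 with transcript length, -0.06 with GC content and -0.20 with the number of exons. For the 13778 protein-coding genes tested these were 0.16, -0.23 and -0.0082. With the distance to the nearest protein-coding gene, the Spearman correlation over the 100 members was -0.06.

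Lists of long non-coding RNAs gave the setting, to be read beside the 22.8% called over all genes tested (12.9% lower and 9.87% higher). The lists are short, and no difference between them was tested. Of 15 LINC genes described in prostate or other cancers, 6 were members: LINC01234 rose, LINC00662 and LINC00963 fell, and LINC00665, LINC00511 (-0.54 ± 0.32) and LINC01138 (-0.80 ± 0.30) did not pass. LINC00511 had a log2 fold change of -0.79 without knockout replicate 3, where it passed (edgeR adjusted p = 0.0222), and LINC01138 passed when either of the knockout libraries was left out. The list of 10 LINC genes with a microprotein held 1 member, LINC00467 (LINC00665 was not on that list), and of 3 listed for acting on a neighbour 1 was, LINC01578. Among nuclear-retained RNAs, 3 of 10 tested were called, each lower, with a median log2 fold change of -0.45 beside -0.0045 over all genes. MALAT1, the abundant RNA of nuclear speckles, was at 394 and 570 normalized CPM in the knockouts and 2653 and 2257 in the controls. KCNQ1OT1, an RNA of an imprinted domain, was at 2.48 and 1.31 in the knockouts and 14.3 and 14.04 in the controls, and NEAT1, the scaffold of paraspeckles, at 387 and 145 in the knockouts and 632 and 652 in the controls. Among cytoplasmic and snoRNA-host RNAs, 1 of 15 tested rose and 1 fell, with a median of -0.11: NORAD, which binds Pumilio proteins and formerly had a LINC name, was at 232 and 174 normalized CPM in the knockouts and 70.5 and 75.5 in the controls (1.48 ± 0.17, edgeR adjusted p = 0.00292), and SNHG12 fell by 0.60 on the log2 scale. These levels and the share of mitochondrial transcripts moved with the groups, and their part in the members' values was not tested.

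Just inside the minimum of 200 summed counts lay LINC02298 with 206, LINC01311 with 209, LINC01023 with 210, LINC00960 with 212 and a row of LINC01238 with 213. Just outside lay LINC00926 with 199, LINC01137 with 187 and LINC01291, LINC01666 and LINC00882 with 181 each. LINC02298 had 59 and 61 counts in the knockouts and 41 and 45 in the controls, and LINC00926 had 26 and 59 in the knockouts and 59 and 55 in the controls. Among the 115 LINC-named rows tested under the minimum, 9 (7.83%) were lower and 1 (0.87%) higher, with a median log2 fold change of -0.15. Both shares lay below those over all genes tested, 12.9% lower and 9.87% higher. Of those 18043 genes, however, 13489 reached the minimum, so the shares do not compare genes of like level.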

How the data were processed

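The values are raw gene counts, whole numbers in a table of 57500 rows that the authors deposited for the 4 libraries. The submitters' processing notes name GRCh38, Trimmomatic (0.36) for trimming reads, STAR (2.5.2b) and the featureCounts program of Subread (1.5.2). No source used here gives the annotation release, the strand setting or the handling of multi-mapping reads. The 486 rows without a gene name, with 0.0191% to 0.0290% of a library's counts, were left out.

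Counts were filtered with filterByExpr (count minimum 10), scaled by TMM and given to the quasi-likelihood test of edgeR (4.0.16, R version 4.3.3; robust glmQLFit, then glmQLFTest; group as the term, 2 residual degrees of freedom, biological coefficient of variation 0.158). Benjamini-Hochberg adjustment covered the 18043 genes tested. SE is the log2 fold change divided by the square root of F. The code was tested on simulated data. Alternatives were other scalings, no filter, DESeq2 1.42.0, limma 3.58.1 voom, a replicate block, GC and length offsets, other member minimums and leaving out each library.

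Gene types, positions and exonic overlap are from GENCODE 29, promoters and symbols from RefSeq (GRCh38.p14). The members, lists and tests were chosen with earlier results of these data known. Genes named are CD276, the 10 called members with the largest fall and the 10 with the largest rise (6 rose), the 10 highest, the 5 whose knockout libraries differ most, members in the LINC lists, the 3 genes of the other lists with the smallest p, 5 on each side of the minimum and the neighbours of called members.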

Additional observations from a re-analysis of the deposited data

How the results depend on the processing

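The 24 calls kept their direction in all 12 other fits in which they were tested; 20 to 24 passed under other scalings, filters and tools. Leaving out 1 library gave 0 to 16 higher and 3 to 34 lower members and a median of -0.16 to -0.077. Members higher numbered 10 by library totals and 0 at an adjusted p under 0.01, where 6 were lower; 11 were lower among members without shared exons and 8 among those with at least 500 counts, both from fewer members. The median was -0.19 with RLE scaling, -0.23 with upper quartile scaling, -0.10 with library totals, -0.18 without a filter, -0.19 with DESeq2, -0.23 with voom, -0.14 with GC and length offsets and -0.17 at a minimum of 100 counts. Both groups carry the replicate numbers 1 and 3, but deviations of same-numbered libraries from their group means correlated at -0.015, and the numbers were not taken to pair them. The replicate block gave 9 higher and 18 lower members and a median of -0.22, lost the call of LINC00963 and added 4, LINC00106 as lower and LINC00886, LINC01351 and LINC01881 as higher. CD276 was at -0.92 without control replicate 3 (edgeR adjusted p = 0.0812), and leaving out 1 library gave -1.13 to -0.92.

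Of the members without a call, the direction turned with GC and length offsets in LINC00665 (-0.030), LINC00467 (-0.13), LINC02210 (-0.10) and LINC01311 (0.078), and with library totals in LINC01347 (0.0075). Leaving out 1 library gave ranges across 0 for LINC00665 (-0.066 to 0.31), LINC00467 (-0.019 to 0.23), LINC02210 (-0.059 to 0.20), LINC00173 (-0.90 to 0.25), LINC01347 (-0.85 to 0.44), LINC02381 (-1.14 to 0.27), LINC01023 (-0.42 to 0.74), LINC01311 (-1.18 to 0.33) and LINC02298 (-0.015 to 0.33). The cause of these turns was not tested. At 20079050 to 25802417 counts per library, members near the minimum had SEs up to 0.47, so changes of that size were not detectable there.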
